A study of Mus musculus with 2 samples.

Results

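Astrocytes made up 920 of the 7418 cells that the authors kept in their combined table, 479 from control and 441 from Irx3/5dHet animals. They were chosen by gene levels in each cell. The summed unique molecular identifiers (UMIs, counted RNA molecules) of Agt, Slc7a10, Ntsr2, Pla2g7 and Aqp4 had to reach 5 per 10000 UMIs of the cell (CP10K). The neuronal genes Snap25, Stmn2 and Syt1 together had to stay under 5 CP10K, and Pdgfra, a gene of oligodendrocyte precursors, had to have no UMI. Levels of these 9 genes and of genes that vary with them are therefore given as descriptions of the cells chosen, with no test.

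The tissue was the base of the hypothalamus, the arcuate nucleus with the median eminence, of CD-1 mice at postnatal day 10. Control mice had the genotype Ins2-Cre;tdTomato+/-, and the other group, Ins2-Cre;tdTomato+/-;Irx3/5+/-, in addition lacked 1 copy of both Irx3 and Irx5 (dHet). In both groups Cre was driven by the Ins2 promoter and switched on the tdTomato reporter, and viable tdTomato-positive cells were sorted after papain digestion. Each genotype was 1 library from 1 pool, of 5 mice per the sample characteristics and 5 to 6 per the protocol, read with the 3′ v3 chemistry of 10x Genomics. The astrocytes described here are therefore those in which the reporter was on at some point in their lineage, not all astrocytes of the region. With 1 library per genotype no difference could be tested against variation between animals, and the 95% intervals below cover counting error only.

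Astrocytes take up glutamate and GABA released at synapses, buffer potassium, and move water and bicarbonate through channels and cotransporters on their processes. They are the main makers of cholesterol and of lipoproteins carrying apolipoprotein E in the brain, they store glycogen, and they convert glutamate to glutamine. In the first weeks after birth they still divide locally and mature. In the arcuate nucleus they contact feeding neurons and line the paths by which blood-borne signals reach them. Irx3 and Irx5 are neighbouring genes for homeodomain transcription factors of the Iroquois family, which take part in patterning the embryo.

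Astrocytes summed to 3272485 UMIs in control and 3056449 in dHet. Per cell the median was 6270 UMIs over 2671 genes in control and 6677 UMIs over 2778 genes in dHet, and the median mitochondrial share was 6.10% and 6.76%. A total of 4 cell barcodes occurred in both libraries, of which 1 was an astrocyte in either library and 0 in both. Scrublet, a doublet caller, marked 23 control cells (0.661%) and 21 dHet cells (0.533%), 1 astrocyte in each library, and these were kept. Xist, the RNA of the inactive X chromosome, was seen in 58.5% of control and 69.4% of dHet astrocytes, and the Y-linked gene Eif2s3y stood at 66.6 and 42.9 CPM (UMIs per 1000000 UMIs). The part of this in any genotype difference was not tested.

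The label was checked against markers that the rule did not use. Slc4a4, the sodium bicarbonate cotransporter, had a UMI in 95.6% of control and 98.0% of dHet members. Its level was 2154 CPM in control and 2306 CPM in dHet astrocytes. It was 2.80 and 3.35 CPM in cells gated as neurons and 104 and 88.1 CPM in precursors with Pdgfra. In tanycytes it was 124 and 158 CPM, in the Scn7a and Cldn10 cells 252 and 314 CPM. The ciliated ependymal set had 243 and 255 CPM. Neurons, tanycytes and the Scn7a and Cldn10 cells were limited to under 5 CP10K of the genes of the rule. Slc4a4 goes with Agt among members, so its contrast with these 3 sets was partly fixed by the choice of cells. The glutamate transporter Slc1a3 stood at 2654 and 3250 CPM, and its partner Slc1a2 at 2111 and 2364 CPM. The gap junction protein Gja1 was at 1281 and 1177 CPM. Aldh1l1, a folate enzyme widely used to mark astrocytes, was at 150 and 196 CPM, and the growth factor receptor Fgfr3 at 439 and 504 CPM. All 16 astrocyte markers outside the rule were detected in both libraries. Some markers on that list were as high or higher in related glia. Cldn10 stood at 544 and 640 CPM in astrocytes and at 3345 and 4522 CPM in the Scn7a and Cldn10 cells, and Aldoc, an aldolase, at 1042 and 1253 CPM against 1814 and 1806 CPM in tanycytes. Mlc1, a membrane protein of glial endfeet, was at 813 and 742 CPM against 954 and 882 CPM in the ciliated ependymal set.

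**Figure D1:**
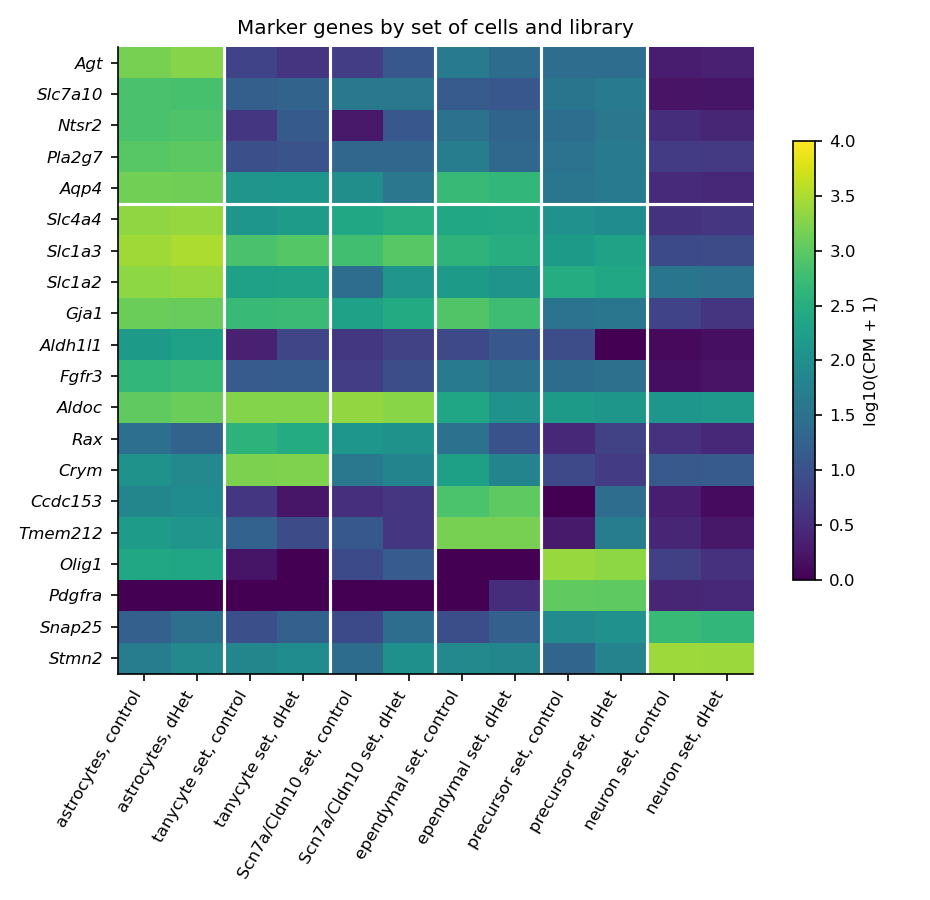
Levels of marker genes in summed cells, as log10(CPM + 1), for astrocytes and 5 comparison sets (columns, control and dHet library of each). The 5 genes above the white line chose the astrocytes. Slc4a4, at 2154 and 2306 CPM in astrocytes, stands at 2.80 and 3.35 CPM in neurons. The neuron, tanycyte and Scn7a/Cldn10 sets were limited to under 5 CP10K of the genes that chose the astrocytes.

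Markers of other cell types were also read in the members. Of 10 microglial markers 8 were at 0 UMIs in both libraries, including Cx3cr1, C1qa and Csf1r, and a count of 0 allows up to 3 UMIs. Sox10, which marks the oligodendrocyte lineage, had 2 and 1 UMIs, while Olig1 stood at 251 and 232 CPM and Olig2 at 107 and 80.2 CPM. The 11 neuronal markers include Snap25, Stmn2 and Syt1, which the rule limits in members and which gate the neurons. Their contrast with the neurons was thus partly fixed by the choice of cells. All 11 summed to 141 CPM in control and 219 CPM in dHet members, against 6607 CPM in the neurons. The ratio between the libraries was 1.55 (1.38 to 1.75). Free RNA and adhering fragments were not separated from expression at this level. The 10 ependymal markers summed to 1125 and 776 CPM, against 8675 CPM in the ciliated ependymal set.

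The strength of the gate varied among members. The median summed level of the gate genes was 60.5 CP10K in control and 61.2 CP10K in dHet. At 20 CP10K or more stood 397 control members (82.9%) and 396 dHet members (89.8%). A further 29 and 17 members lay between 10 and 20 CP10K, and 53 and 28 between 5 and 10 CP10K. The lower bands were thus better filled in the control library.

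Members at 5 to 10 CP10K carried genes of the ventricle wall. Ccdc153, a gene of motile cilia, was at 243 CPM in control and 798 CPM in dHet cells of that band, and at 0.411 and 0 CPM in members at 20 CP10K or more. Rax, a transcription factor of tanycytes, the elongated glia of the ventricle floor, was at 120 and 78.4 CPM in the low band and at 8.23 and 10.97 CPM in the high one. The tanycyte gene Crym stood at 599 and 549 CPM in the low band and at 11.1 and 23.8 CPM in the high one. Agt, the precursor of angiotensin, went the other way, from 58.9 and 53.4 CPM to 2032 and 2132 CPM. Slc4a4 moved from 226 and 246 CPM to 2739 and 2594 CPM. Cells just outside the rule, at 2.5 to 5 CP10K, numbered 75 and 62, with Rax at 192 and 206 CPM, Crym at 640 and 1125 CPM and Aqp4, the astrocyte water channel, at 215 and 247 CPM. In all, 41 of the 91 cells gated as ciliated ependymal also met the astrocyte rule, 27 in control and 14 in dHet. List medians and many gene ratios below are therefore also given for the members at 20 CP10K or more, called the high band, a limit added after these values were seen.

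**Figure D2:**
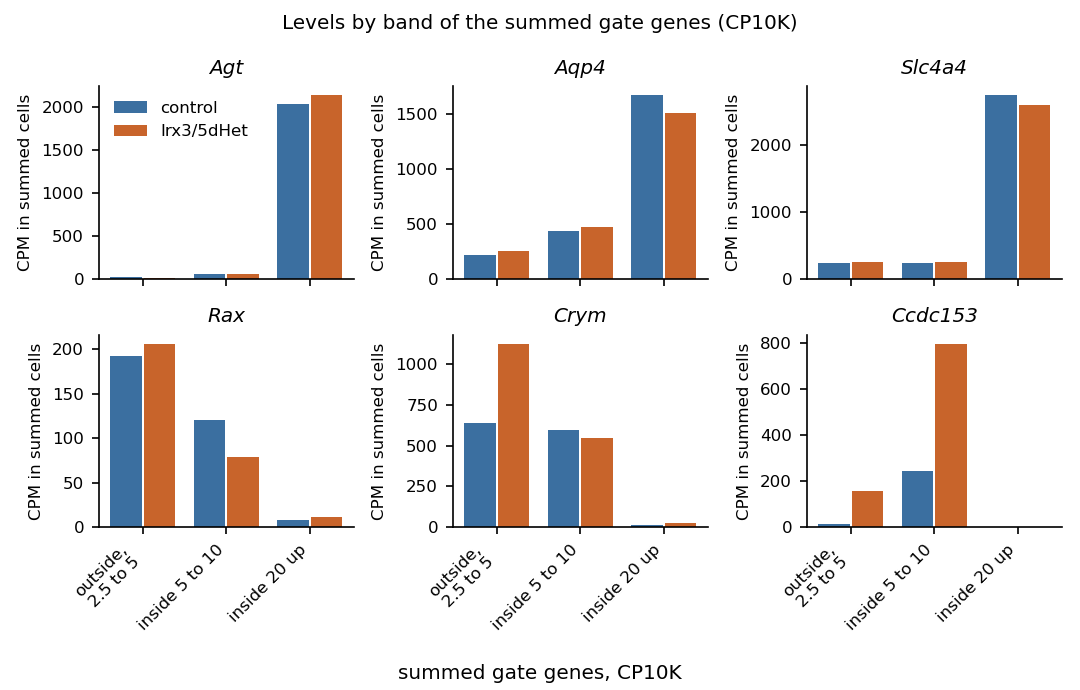
Levels (CPM in summed cells, linear axes) of 3 astrocyte genes and 3 genes of the ventricle wall, for cells just outside the rule and for 2 bands of members, by library. Agt rises from 58.9 and 53.4 CPM at 5 to 10 CP10K to 2032 and 2132 CPM at 20 CP10K or more, where Ccdc153 stands at 0.411 and 0 CPM.

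The same division appeared when genes were ranked by their variation among members. Dispersion was measured as the variance relative to counting error, where 1 is counting error alone, and its median over 2510 genes was 1.22 in control and 1.16 in dHet astrocytes. The ranking used the lower of both libraries' values. For the same relative spread this dispersion rises with a gene's level, so the ranking also follows abundance. Malat1, a nuclear RNA, led with 250 and 184, followed by Cst3 (cystatin C) with 57.3 and 60.1, and Nnat (neuronatin) with 49.7 and 38.8. Apoe had 48.5 and 35.2, Dbi, an acyl-CoA binding protein, 40.8 and 33.2, and the brain fatty acid binding protein Fabp7 36.1 and 32.1. Genes of the ventricle wall ranked high as well: Tmem212 had 15.02 and 15.4 and Crym 10.7 and 11.1.

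Gfap, the intermediate filament of mature and reactive astrocytes, was uneven in another way. It had a UMI in 21.1% of control (17.5 to 25.02) and 19.7% of dHet members (16.1 to 23.8), and 5 cells held 50.3% of its UMIs. Its dispersion was 17.6 and 55.6. By contrast Sox9, the glial transcription factor, had 1.48 and 1.63, although at 477 and 430 CPM it was more abundant than Gfap. Aldh1l1 had 1.41 and 1.33, but at a lower level than Gfap, where the dispersion lies nearer to 1 for the same relative spread.

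Among 374 control and 366 dHet members thinned to 4000 UMIs each, genes were ranked by how far their counts went with those of Agt. Spearman's rho with Agt was 0.54 and 0.44 for Pla2g7, a lipoprotein-associated phospholipase, and 0.52 and 0.43 for Slc7a10, an exchanger of D-serine and alanine, both genes of the rule. Outside the rule it was 0.56 and 0.41 for the GABA transporter Slc6a11 and 0.55 and 0.38 for the endothelin receptor Ednrb. Slc4a4, Sparcl1, the sodium pump subunit Atp1b2 and Gpr37l1 were also among the 10 most like Agt, each between 0.35 and 0.60. The most opposite genes, looked up after the values were seen, were Slc38a1 (-0.56 and -0.42) and genes of cilia such as Cfap126 (-0.53 and -0.41). These are descriptions over cells of 2 libraries that the Agt level itself helped to choose.

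Astrocytes were 13.8% of control cells (12.6 to 14.96, exact Clopper-Pearson interval) and 11.2% of dHet cells (10.2 to 12.2). The ratio of dHet to control was 0.813 (0.713 to 0.927). In the high band it was 0.881 (0.765 to 1.02), so the interval then held 1. Neurons moved the other way, from 69.5% to 76.2%, and each library's shares sum over 1 sort, so that fewer astrocytes and more neurons cannot be told apart.

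Irx3 and Irx5, the genes with 1 copy removed, were read first among the genotype differences. Irx3 had 68 UMIs in control and 23 in dHet astrocytes, or 20.8 and 7.53 CPM, a ratio of 0.362 (0.215 to 0.589). Irx5 had 130 and 75 UMIs, or 39.7 and 24.5 CPM, a ratio of 0.618 (0.459 to 0.827). In the high band the ratios were 0.323 and 0.581. Both intervals lay below 1. The position of the deletion relative to the counted 3′ ends was not examined, so these counts are not a check of the allele.

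Most of the Irx3 and Irx5 RNA of these libraries lay in astrocytes. They held 71.6% of all Irx3 UMIs of the control library and 53.5% of the dHet library, and 71.4% and 68.2% of the Irx5 UMIs. An Irx3 or Irx5 UMI was seen in 26.1% of control (22.2 to 30.3) and 17.2% of dHet astrocytes (13.8 to 21.1). The ciliated ependymal set, which shares 41 cells with the astrocytes, had Irx5 at 39.7 and 34.2 CPM. Tanycytes with Rax and Crym had no Irx3 UMI in either library, and neurons stood at 0.168 and 0.0784 CPM. Precursors with Pdgfra were at 9.64 and 6.48 CPM for Irx3. For Irx1 the order was another one, with 9.47 and 10.8 CPM in astrocytes and 152 and 139 CPM in the precursors. Irx2 had 14 and 7 UMIs in astrocytes, and Irx4 and Irx6 had 0.

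**Figure D3:**
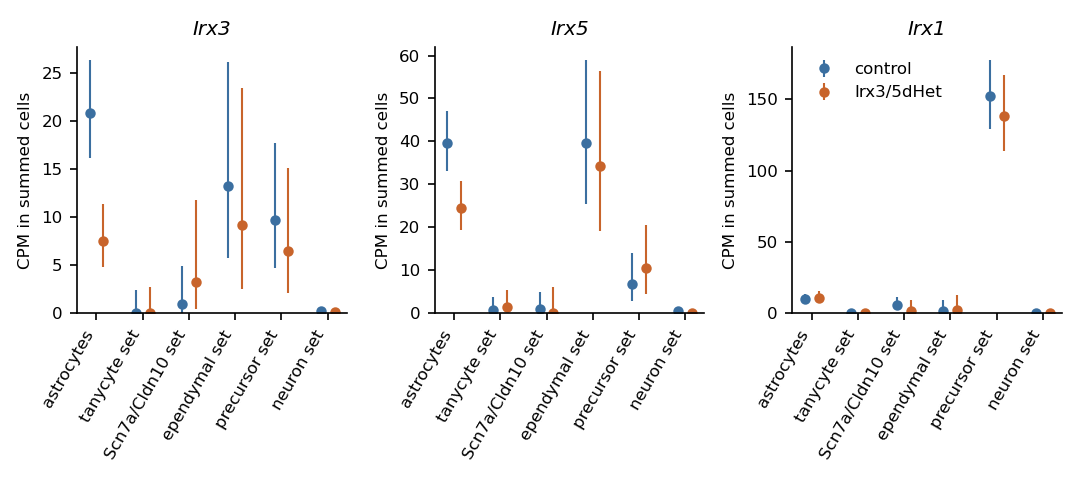
Irx3, Irx5 and Irx1 levels (CPM in summed cells, linear axes) by set of cells and library, with exact 95% Poisson intervals for counting error. Irx3 in astrocytes stands at 20.8 CPM in control and 7.53 CPM in dHet, Irx5 at 39.7 and 24.5 CPM, while Irx1 peaks in the precursor set.

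Across the transcriptome, dHet and control astrocytes differed in few genes by much. Of 5457 genes that had 200 UMIs or more and were seen in 10% or more of the members in 1 library, 46 were higher by at least 1.5-fold in dHet (0.843%) and 80 were lower (1.47%), on a log2 ratio with 5 CPM added to each side. The median log2 ratio over these genes was -0.04. Of all 10275 genes with at least 50 UMIs, 4253 had a positive and 6022 a negative log2 ratio, and the counts of signs in the lists below are read beside that split. In the high band, 36 genes were higher, of which 20 were among the 46, and 44 were lower, of which 10 were among the 80, of 4479 genes with enough UMIs.

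**Figure D4:**
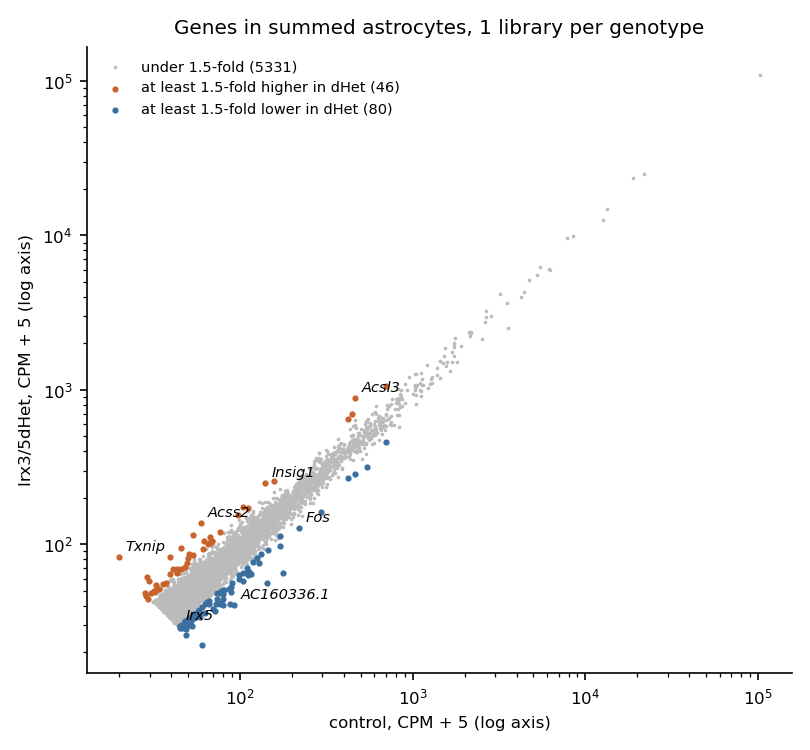
CPM + 5 of the 5457 genes in summed astrocytes, control against dHet (log axes), with genes at least 1.5-fold apart in colour: 46 higher and 80 lower in dHet. Txnip stands farthest above the diagonal, at 14.97 CPM in control and 77.5 CPM in dHet.

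Txnip, which binds thioredoxin and restrains glucose uptake, had the highest log2 ratio among the counted genes that were eligible to be named. It had 49 UMIs in control (14.97 CPM) and 237 in dHet (77.5 CPM), a ratio of 5.18 (3.79 to 7.196), and was seen in 6.05% and 30.2% of members. In the high band the ratio was 12.8 (7.30 to 24.5). Its log2 ratio was 2.05 in astrocytes, 0.72 in tanycytes and 0.61 in neurons. The promoter of Txnip is known to bind the glucose-sensing factors of the Mlx family at paired elements, and is shown for that reason. RefSeq (GRCm38.p6) gives the window chr3:96557707-96558006, plus strand, from 250 bases before to 50 after the annotated start, where capitals mark a pair of CACGNG letters on either strand with 5 bases between them:

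Txnip promoter: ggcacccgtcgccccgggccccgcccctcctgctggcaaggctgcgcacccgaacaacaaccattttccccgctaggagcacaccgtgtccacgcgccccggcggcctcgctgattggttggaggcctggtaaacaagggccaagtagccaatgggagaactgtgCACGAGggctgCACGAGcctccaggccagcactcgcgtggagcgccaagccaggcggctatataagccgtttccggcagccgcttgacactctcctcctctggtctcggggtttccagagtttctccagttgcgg

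Such a pair, here beginning at position -85 from the start, was in 27 of 32851 mouse promoter windows of 300 bases (0.0822%), searched after the values of Txnip were seen. The window of Arrdc4, the other gene looked up for such pairs, held 0. Arrdc4 had 17 and 21 UMIs in the high band, a ratio of 1.14 (0.571 to 2.29). The match in Txnip describes the letters and is no evidence that a factor was bound.

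Several of the highest ratios belonged to enzymes and carriers of acetate and fatty acids. Acss2, which makes acetyl-CoA from acetate, had 54.7 CPM in control and 132 CPM in dHet, a ratio of 2.42 (2.02 to 2.90), and was seen in 25.5% and 51.2% of members. Acsl3, an acyl-CoA synthetase of lipid droplets, went from 461 to 879 CPM, a ratio of 1.91 (1.79 to 2.03), with 1507 and 2687 UMIs behind it. Mfsd2a, which carries lysophospholipids with omega-3 fatty acids, stood at 34.2 and 77.5 CPM, and the desaturase Scd1 at 56.8 and 100.4 CPM. In the high band the ratios of these 4 genes were 2.31, 1.72, 2.22 and 1.59. Of 31 genes of fatty acid, acetate and ketone metabolism, 25 had a positive and 6 a negative log2 ratio, with a median of 0.17 (0.07 in the high band), and 4 of the 24 with 200 UMIs or more were past 1.5-fold higher, against 0.843% of all genes counted. Fasn, fatty acid synthase, stood at 162 and 164 CPM, and Scd2, the more abundant brain desaturase, at 1892 and 1912 CPM. The median over all 10275 genes with at least 50 UMIs was -0.04.

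Genes of cholesterol synthesis leaned higher in dHet. Of 25 genes 22 had a positive log2 ratio and 3 a negative one, the median was 0.36 (0.30 in the high band), 7 of 24 were past 1.5-fold higher (0.843% of all genes counted) and 0 lower, and 18 had intervals wholly above 1. Insig1, which holds the sterol sensor Scap in the endoplasmic reticulum and is itself a sterol-responsive gene, stood at 135 CPM in control and 243 CPM in dHet, a ratio of 1.80 (1.59 to 2.02). Stard4, which moves cholesterol between membranes, stood at 44.9 and 76.9 CPM. Of the enzymes, Fdps was at 153 and 252 CPM, Lss at 48.6 and 80.2 CPM, Mvd at 92.6 and 151 CPM, Hsd17b7 at 44.3 and 70.7 CPM and Msmo1 at 694 and 1048 CPM. Mvk, Scap and Insig2 lay between 0.955 and 0.994. In the high band Fdps, Hsd17b7 and Msmo1 were under the fold, with log2 ratios of 0.584, 0.454 and 0.421. Insig1, Stard4, Lss and Mvd stayed past it, with 0.726, 0.608, 0.682 and 0.650. The list's medians in other cells were 0.02 in tanycytes, 0.26 in the Scn7a and Cldn10 cells, -0.19 in the ciliated ependymal set, 0.08 in precursors and 0.03 in neurons, and the difference from astrocytes was not tested.

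Hmgcs1, the synthase at the entry of the pathway, stood at 608 and 782 CPM, a ratio of 1.29 (1.21 to 1.37), and 1.26 in the high band. Its promoter is shown because it holds the letters of a sterol regulatory element, TCACNCCAC on either strand, in capitals at position -137 from the start (RefSeq GRCm38.p6, chr13:119690101-119690400, plus strand):

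Hmgcs1 promoter: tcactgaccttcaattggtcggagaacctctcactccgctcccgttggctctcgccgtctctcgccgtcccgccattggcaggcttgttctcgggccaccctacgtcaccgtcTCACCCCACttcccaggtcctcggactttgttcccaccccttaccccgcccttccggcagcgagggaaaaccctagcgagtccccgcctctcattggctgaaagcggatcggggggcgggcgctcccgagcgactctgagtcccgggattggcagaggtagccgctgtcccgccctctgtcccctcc

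Of the 25 genes 18 had windows, matched by symbol, 24 windows in all. Of these windows 1 held these letters (4.17%), against 408 of 32851 windows (1.24%). No match in the other windows says only that these letters are not there.

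The handling of cholesterol once made differed less. Of 14 genes of lipoproteins and sterol export 9 had a positive log2 ratio, with a median of 0.10 and none past 1.5-fold. Apoe, the main lipoprotein of astrocytes, stood at 21904 and 24988 CPM, a ratio of 1.14 (1.13 to 1.15), and 1.06 in the high band. Srebf1, the factor for fatty acid genes, went the other way, from 153 to 114 CPM, a ratio of 0.747 (0.650 to 0.859), and 0.744 in the high band.

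**Figure D5:**
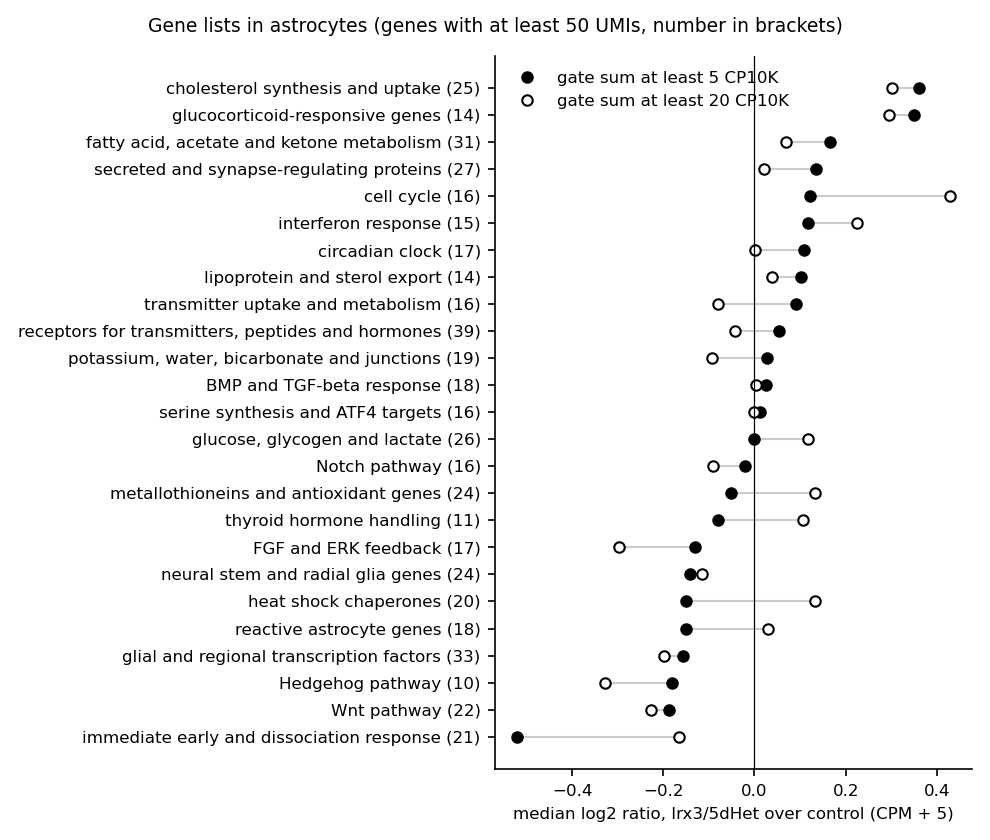
Median log2 ratio (dHet over control, 5 CPM added) of each gene list with at least 10 genes of at least 50 UMIs, for all members (filled) and for the high band (open). Cholesterol synthesis stands at 0.36 and 0.30, immediate early genes at -0.52 and -0.17.

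Genes known to respond to glucocorticoids also had a positive median, 0.35 over 14 genes (0.30 in the high band), of which 11 were positive and 3 negative. Over the 7 with enough UMIs for the count the median was 0.09, and 1 was past 1.5-fold. In precursors the list's median was 0.38, over 6 genes. It was 0.09 in tanycytes, -0.10 in the Scn7a and Cldn10 cells, 0.06 in the ciliated ependymal set and -0.008 in neurons. Zbtb16, a zinc finger factor, had 3.97 CPM in control and 28.5 CPM in dHet, a ratio of 7.17 (3.98 to 14.0). Sult1a1, a sulfotransferase, stood at 4.28 and 19.6 CPM, while Cdkn1a, which encodes p21 and arrests the cell cycle, stood at 10.1 and 34.0 CPM. All 3 were too weakly expressed for the transcriptome-wide count, and their ratios in the high band were 6.25, 4.68 and 5.85. Cables1, which binds cyclin-dependent kinases, was the one past the fold, at 62.3 and 107 CPM, but its log2 ratio of 0.74 was 0.57 in the high band, just under the fold. Tsc22d3, a classical target of the receptor, had a ratio of 1.22 (1.06 to 1.41), and Ddit4 stood at 114 and 113 CPM. Fkbp5, another known target, had only 3 and 31 UMIs in the high band, a ratio of 9.50 (2.96 to 48.6). The receptor gene Nr3c1 was at 182 and 156 CPM.

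The machinery for taking up transmitters was close to even. Of 16 genes 14 had a positive log2 ratio, with a median of 0.09, which was -0.08 in the high band. Slc1a2 had a ratio of 1.12 (1.08 to 1.16) in all members and 0.969 in the high band. Glul, glutamine synthetase, was past the fold, from 441 to 698 CPM, a ratio of 1.58 (1.48 to 1.69), and 1.44 in the high band. Kcnj10, the main potassium channel of astrocytes, stood at 215 and 201 CPM and Aqp4 at 1383 and 1380 CPM, with ratios of 0.818 and 0.901 in the high band. Gjb6, connexin 30, a gap junction protein that appears as astrocytes mature, went from 98.7 to 169 CPM, a ratio of 1.72 (1.49 to 1.98), and 1.52 in the high band. Its partner Gja1, connexin 43, had a ratio of 0.918 (0.878 to 0.961), and 0.871 in the high band.

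Receptors were mostly even as well, with 23 of 39 positive and a median of 0.05. Adra1a, the alpha-1A adrenergic receptor through which noradrenaline raises astrocyte calcium, had 8.25 and 22.6 CPM, a ratio of 2.74 (1.73 to 4.44), and 2.32 in the high band. Gabrb1, a GABA-A receptor subunit, stood at 36.1 and 64.1 CPM, and 1.74 was its ratio in the high band. Lpar1, a lysophosphatidic acid receptor, was lower, at 43.7 and 23.2 CPM, but not in the high band. There 17 and 24 UMIs gave a log2 ratio of 0.23, and the interval of the ratio held 1 (0.669 to 2.58). Pdgfrb, better known from mural cells, was at 24.8 and 53.3 CPM. The 8 mural and fibroblast markers summed to 64.8 and 88.0 CPM, a ratio of 1.36 (1.13 to 1.63). Among them Col1a2 had 180 and 209 UMIs, Dcn 1 and 29 and Acta2 6 and 19. Col1a1 went the other way, with 25 and 9 UMIs, and Vtn and Lum had 0. The part of mural RNA in the Pdgfrb level was not tested.

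Other genes among the 15 highest were Eva1a, a membrane protein linked to autophagy, at 48.6 and 111 CPM, Mical2, an actin-oxidizing enzyme, at 40.6 and 89.3 CPM, Fcgrt, the neonatal Fc receptor, and Rgs17, a regulator of G protein signalling. Of the 15 highest genes 14, all but Cables1, were also past the fold in the high band.

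Several genes of fibroblast growth factor signalling, which supports astrocyte identity, were lower in dHet. Il17rd, a feedback inhibitor of the receptors, had 246 UMIs in control and 109 in dHet, or 75.2 and 35.7 CPM, a ratio of 0.474 (0.375 to 0.597), and 0.408 (0.321 to 0.515) in the high band. Its 5 richest cells held 4.23% of its UMIs, and it was seen in 36.7% of control and 20.2% of dHet members. Fgfrl1, a receptor without a kinase, stood at 74.9 and 45.5 CPM, a ratio of 0.607 (0.490 to 0.751), and 0.539 in the high band. Of the feedback genes Spry2 had a ratio of 0.708 (0.594 to 0.843) and Spred1 0.852 (0.762 to 0.951), and Etv5, a target factor, 0.789 (0.631 to 0.985). Their ratios in the high band were 0.618, 0.808 and 0.671. Of 17 genes of the list 13 had a negative log2 ratio, the median was -0.13 (-0.30 in the high band) and 2 of the 11 with enough UMIs were past 1.5-fold lower, against 1.47% of all genes counted. The receptor Fgfr3 itself was at 439 and 504 CPM. The list's median was 0.10 in tanycytes, -0.02 in neurons, -0.25 in precursors and -0.20 in the Scn7a and Cldn10 cells. In the ciliated ependymal set it was -0.01, over 2 genes. Precursors and the Scn7a and Cldn10 cells thus leaned lower too.

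Hedgehog and Wnt genes leaned the same way. In the Hedgehog list 9 of 10 genes were negative, with a median of -0.18 (-0.33 in the high band). Ptch1, receptor and target of the pathway, went from 486 to 416 CPM, a ratio of 0.856 (0.794 to 0.922), and the effector Gli3 from 55.0 to 38.9 CPM, a ratio of 0.708 (0.557 to 0.897). These ratios were 0.764 and 0.608 in the high band. In the Wnt list 19 of 22 were negative, with a median of -0.19 (-0.23 in the high band), among them Lrp5, Fzd1 and Axin2. Among all members no gene of either list with enough UMIs was past 1.5-fold, but in the high band Gli3 and Fzd1 were, with log2 ratios of -0.66 and -0.59. In the Notch list 8 of 16 were negative. Jag1, a ligand, stood at 22.0 and 10.8 CPM, and Maml2, a coactivator, at 39.1 and 24.5 CPM. Their ratios in the high band were 0.434 and 0.578. The Hedgehog median was -0.15 in tanycytes, -0.40 in the ciliated ependymal set and -0.12 in precursors. It was 0.14 in the Scn7a and Cldn10 cells and -0.002 in neurons, each over 6 genes or fewer. For Wnt these medians were 0.01, 0.21, -0.05, 0.03 and -0.09, in the same order of sets.

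Of 33 glial and regional transcription factors 27 had a negative and 6 a positive log2 ratio, with a median of -0.16 (-0.20 in the high band) and 15 intervals wholly below 1 against 1 above. Lhx2, a factor of tanycytes and radial glia, was the one past the fold, at 53.5 and 28.8 CPM, with a ratio of 0.708 in the high band. Nfib, which promotes gliogenesis, went from 745 to 584 CPM, a ratio of 0.784 (0.737 to 0.834) and 0.789 in the high band. Hopx had a ratio of 0.755 (0.659 to 0.864) and Olig2 of 0.747 (0.632 to 0.882), which were 0.672 and 0.661 in the high band. Sox9 and Sox2 stood near 1, with 0.900 and 0.970. Rax was at 28.1 and 17.7 CPM, but at 8.23 and 10.97 CPM in the high band. The list's median was -0.05 in tanycytes, 0.17 in the Scn7a and Cldn10 cells and -0.05 in the ciliated ependymal set. In precursors it was 0.03 and in neurons -0.12.

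Many of the other lowest genes stood closer to even in the high band. The long noncoding RNA Rmst stood at 167 and 92.9 CPM, but its log2 ratio in the high band was 0.053. Cd59a, a complement inhibitor, had a ratio of 0.369 (0.305 to 0.443) and 0.838 in the high band, and Anxa5 one of 0.538 and 0.899. Mia, a secreted protein of the ependymal marker list, stood at 173 and 59.9 CPM, and its ratio was 0.346 in all members and 0.694 in the high band. Snhg12, a noncoding host of small nucleolar RNAs, kept 0.511 in both. AC160336.1, a gene known by its clone name, went from 288 to 108 UMIs in astrocytes, a log2 ratio of -1.21, and had -1.19 in tanycytes and -0.86 in neurons.

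Genes that injury raises in reactive astrocytes leaned lower in dHet, but not in the high band. Of 18 with at least 50 UMIs 13 had a negative log2 ratio, with a median of -0.15 in all members and 0.03 in the high band. Over the 8 with enough UMIs for the transcriptome-wide count the median in all members was -0.47. Of these 8 genes 4 were past 1.5-fold lower, against 1.47% of all genes counted. C4b, a complement component, stood at 67.2 and 36.3 CPM and the class I gene H2-D1 at 106 and 58.2 CPM, with ratios of 0.739 and 0.872 in the high band. Gfap was at 222 and 298 CPM, a log2 ratio of 0.41 whose sign changed with the setting: it was 1.04 in the high band, -0.98 without the 5 cells that held 50.3% of its UMIs, and -0.23 with cells weighted equally. S1pr3, a sphingosine phosphate receptor, had 22.0 and 10.5 CPM and turned to a log2 ratio of 0.22 in the high band.

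Immediate early genes, which neuronal activity and cell dissociation both induce, were lower in the summed dHet members. Their median was -0.52 over 21 genes, of which 18 were negative, and 6 of the 13 with enough UMIs were past 1.5-fold lower (1.47% of all genes counted). The median was -0.17 in the high band and turned to 0.16 in cells between the quartiles of UMIs. Fos stood at 216 and 123 CPM, Egr1 at 81.0 and 46.5 CPM and Ier2 at 65.1 and 33.4 CPM. Their ratios in the high band were 0.677, 0.602 and 0.550, while the log2 ratio of Fos was 0.20 between the quartiles. Jun and Jund went the other way in the high band, with ratios of 1.33 (1.07 to 1.66) and 1.25 (1.09 to 1.45). The list's medians were -1.40 in tanycytes, -0.58 in precursors and -0.41 in neurons, so these sets too had lower summed levels in dHet. Of 20 heat shock chaperones 16 had a negative log2 ratio, with a median of -0.15 that was 0.13 in the high band. Hspa1b, at 57.4 and 15.1 CPM, had a log2 ratio of 0.20 there. That value rests on 8 and 12 UMIs, and the interval of the ratio held 1 (0.519 to 3.89).

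Few members had RNA typical of dividing cells. A UMI of Mki67 or Top2a was seen in 9 control members (1.88%, 0.863 to 3.54) and 11 dHet members (2.49%, 1.25 to 4.42). Top2a stood at 9.47 and 39.9 CPM, but 5 cells held 83.0% of its UMIs, and without them the log2 ratio was -0.46. Mki67 stood at 6.11 and 20.3 CPM, and its log2 ratio was 1.19, 1.70 in the high band and 0.90 without its 5 richest cells. The 6 markers of dividing cells summed to 28.7 and 104.7 CPM, a ratio of 3.64 (2.89 to 4.64). These levels rest on few cells of each library.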

How the data were processed

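Single cells were profiled in 1 control and 1 Irx3/5dHet library. The submitters' processing notes name Cell Ranger and genome build mm10, and per the file headers the authors used version 3.0.2 (annotation: not given in the sources used here). A deposited combined table holds raw UMI counts of 20210 genes in 3479 control and 3939 dHet cells, and the deposited count matrices of each sample, with 3694 and 4278 barcodes, served as an alternative.

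Astrocytes were picked from the combined table by the gate given in the results. Comparison sets were gated in the same way. Tanycytes were gated on Rax and Crym, a further glial set on Scn7a and Cldn10, and ciliated ependymal cells on Ccdc153, Tmem212 and Foxj1. Precursors were gated on Pdgfra, and neurons on Snap25, Stmn2 and Syt1. Tanycytes, the Scn7a and Cldn10 set and neurons also had to be under 5 CP10K of the 5 gate genes. All sets but neurons had to be under 5 CP10K of the 3 neuronal genes. The Scn7a and Cldn10 set held no tanycytes. UMIs were summed over members per library and divided by their total (CPM). With 1 library per genotype no test was made, and a gene was counted as different at a 1.5-fold ratio with 5 CPM added, among genes with 200 UMIs or more that were seen in 10% or more of the members in 1 library. Intervals are 95% (Clopper-Pearson for shares, Poisson for levels, conditional binomial for ratios) and cover counting error only, since 1 pool per genotype gives no spread. Doublets were scored with Scrublet in scanpy 1.11.5 and kept in the values reported. Sums used Python 3.11.15, numpy 2.4.6 and scipy 1.17.1. The calling step was tested on simulated counts.

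Named were the Iroquois genes, the markers, the 15 highest and 15 lowest ratios (leaving out mitochondrial, ribosomal, haemoglobin and sex-linked genes, gene models with serial names, and genes under 10% of their level in another set), up to 6 members and the most abundant one of each of 26 lists, the 15 most dispersed genes and the 10 most like Agt. Some genes that this rule names are not reported here. List genes named beyond these were picked with their values in view. The members, lists and rules were chosen with earlier results of these data known. Alternatives changed the gate, the neuron limit, the matrices, the doublets, cells with genes of other glia, depth, weighting, pseudocount, minimum UMIs and centring.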

Additional observations from a re-analysis of the deposited data

How the results depend on the processing

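The genotypes have 1 library each, so every value compares these 2 libraries and no alternative stands for biological replication. No paired analysis was possible because each genotype has 1 library. The ratio of the astrocyte share was 0.711 (0.613 to 0.824) with the neuronal limit at 2 CP10K, and the ratios of Irx3 and Irx5 kept their direction in every alternative run. The number of genes at least 1.5-fold higher in dHet, 46 as reported, was 28 with cells thinned to 4000 UMIs, 29 in cells between the quartiles of UMIs, 18 with a pseudocount of 20 CPM, 103 among genes with at least 50 UMIs and 6 among those with at least 1000. The number lower, 80 as reported, was 44 with the gate at 20 CP10K (added after the data were seen), 51 without cells carrying genes of other glia, 41 thinned, 31 between the quartiles, 125 with cells weighted equally, 34 with a pseudocount of 20 CPM, 187 with at least 50 UMIs and 6 with at least 1000. Centred on the median of all genes, 59 were higher and 64 lower. The thinned, between-quartile and 1000-UMI settings tested fewer genes, 2633, 2615 and 912 against 5457, and elsewhere the cause was not tested.

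Of 80 named genes past the fold, 43 were still past it with the gate at 20 CP10K. With that gate the log2 ratio reversed for Dio2 (0.11), Gpx1 (0.18), Hspa1b (0.20), Lpar1 (0.23), Rmst (0.053) and S1pr3 (0.22), among others. For Dio2, Gpx1, Hspa1b and Lpar1 the interval of the ratio then held 1. Without cells of other glial genes the log2 ratio reversed for Bambi (0.10) and Dio2 (0.039). In cells between the quartiles of UMIs it reversed for Bambi (0.13), Cyr61 (0.079), Fos (0.20), Hspa1b (1.06) and Hspb8 (-0.049), and after thinning for Hspb8 (-0.15). Without the 5 cells with most UMIs of the gene it reversed for Top2a (-0.46) and Ube2c (-0.048), among others. Of 338 medians of the 26 lists under alternatives, 306 lay within an interval for the reported median and 32 lay outside it. That interval came from the spread among the list's own genes. It is wide for short lists, and a median inside it can still change sign. Signs changed for small medians, such as that of the transmitter list (-0.08 with the gate at 20 CP10K), and for the immediate early list, from -0.52 to 0.16 between the quartiles of UMIs. The cholesterol list ran from 0.30 to 0.43 over the alternatives, and the cell cycle list, 0.12 as reported, from 0.059 to 0.52. Genes near 10 CPM rest on about 30 UMIs a library, and their ratios are imprecise.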
